A study of Mus musculus with 9 samples.

Results

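Klf8 and 9 other Krüppel-like factor genes (Klf3, Klf4, Klf5, Klf6, Klf7, Klf9, Klf10, Klf12 and Klf13) were examined in mouse squamous cell carcinoma (SCC) cells that differ in focal adhesion kinase (FAK, encoded by Ptk2). The genes were picked by family name, with Klf8 singled out as a factor known to act downstream of FAK, and results of these libraries were known when they were picked. They are 10 of the 19044 gene identifiers measured. Their values are therefore given as a description, with no p-value for a member.

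RNA was sequenced from 9 libraries, with 3 biological replicates for each of the FAK-WT, FAK-/- and FAK-kd lines. The cells came from skin tumours induced with DMBA and TPA in FVB mice that carried K14CreER and floxed FAK alleles, and FAK was deleted in culture with 4-hydroxytamoxifen. FAK-/- cells are a clone with this deletion, and the same clone was given wild-type FAK (FAK-WT) or kinase-deficient FAK (FAK-kd) by a retrovirus, so every group shares the deletion of the endogenous gene. Each form of FAK was studied in 1 stable line, so that the form of FAK and the history of its line cannot be told apart. The age of the animals is not given in the sources used here.

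Krüppel-like factors bind CACCC and other GC-rich boxes through zinc fingers at the end of the protein, and their other parts recruit coactivators or corepressors. KLF3, KLF8 and KLF12 recruit the corepressor CtBP, KLF9, KLF10 and KLF13 recruit Sin3, and KLF4, KLF5, KLF6 and KLF7 act largely as activators. In stratified epithelium, KLF5 is known for proliferation of basal cells and KLF4 for the differentiation of upper layers. KLF8 has been placed between FAK signalling and the cyclin D1 gene.

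Ptk2 levels followed the labels. Levels are read counts scaled to a common library size (CPM), with library sizes corrected by the trimmed mean of M-values (TMM). Ptk2 was at 213, 216 and 216 CPM in the FAK-WT libraries, at 21.8, 23.5 and 19.6 CPM in the FAK-/- libraries and at 155, 158 and 176 CPM in the FAK-kd libraries. Total counts were between 25304994 and 37264636 in 8 libraries, whereas FAK-WT replicate 1 held 779755, or 2.31% of the median of the others. In it 3 counts amounted to 3.78 CPM, against 0.0798 to 0.118 CPM in the others. FAK-/- replicate 3 also stood apart, with a chi-square per degree of freedom over genes of 59.0 and 53.3 against the other two of its group, which gave 3.31 against each other. To a lesser degree so did FAK-kd replicate 1, with 17.1 and 18.9 against the others of its group, which gave 5.27 against each other.

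The SCC lines lacked most classical keratinocyte markers. Of 10 keratinocyte markers 8 were in the table, and Krt5, Krt14, Krt18, Krt6a and Cdh1 were at or near 0 in every library. The list's summed level was 170 to 175 CPM in FAK-WT, 283 to 298 CPM in FAK-/- and 253 to 275 CPM in FAK-kd cells, nearly all of it from the integrin gene Itga6. Among the low markers, the keratin gene Krt8 was higher in FAK-kd cells (1.38, 0.899 and 0.791 CPM) than in FAK-/- cells (0.300, 0.158 and 0.224 CPM), past the threshold of an adjusted p of at most 0.05 with a log2 change of 1 or more in either direction (2.13, SE 0.43, edgeR adjusted p = 0.0055). Krt6a passed it in FAK-WT over FAK-kd (edgeR adjusted p = 0.024) on 0 to 8 counts per library in those groups. This was lost without FAK-WT replicate 2 (0.098) or 3 (0.081) or FAK-kd replicate 2 (0.089) or 3 (0.052). It was also lost with the replicate number as a block (0.099). The summed level of 5 fibroblast markers was 20.1 to 24.4 CPM in FAK-WT, 57.9 to 62.2 CPM in FAK-/- and 50.0 to 74.9 CPM in FAK-kd cells, and its members did not move together. Pdgfra (-1.44 over FAK-/- and -1.11 over FAK-kd) and Pdgfrb (-2.04 and -2.40) were lower in FAK-WT cells past the threshold. The smallest Pdgfra change over FAK-kd with 1 library left out was -0.98, short of the fold minimum. Col1a2 was higher in FAK-kd than in FAK-/- cells (1.29, SE 0.25, edgeR adjusted p = 0.0047), with a FAK-WT over FAK-/- change of 0.80 (adjusted p = 0.058). Dcn was higher in FAK-WT than FAK-/- libraries (2.24, edgeR adjusted p = 0.043) on 0 to 19 counts. That call was lost under DESeq2 (0.182), with only the groups compared (0.072) and with the replicate number as a block (0.119). It was also lost without FAK-WT replicate 2 (0.207) or 3 (0.100), without FAK-/- replicate 2 (0.0915) and without FAK-kd replicate 2 (0.053) or 3 (0.069). Under glmTreat, a test against a log2 fold change of 1, the calls on Krt8, Krt6a, Pdgfra, Col1a2 and Dcn were lost. The endothelial marker Cdh5 was at 1.26, 1.97 and 1.24 CPM in FAK-WT, 0.180, 0.118 and 0.128 CPM in FAK-/- and 0, 0 and 0.0586 CPM in FAK-kd libraries, and was higher past the threshold in FAK-WT cells against both (edgeR adjusted p = 2.7e-04 and 1.2e-05). The other endothelial markers were near 0, and Pecam1 was lowest in FAK-WT cells. Pecam1 averaged 0.077, 0.220 and 0.188 CPM in FAK-WT, FAK-/- and FAK-kd cells, and Kdr and Tek at most 0.050 CPM in any group. Pecam1, Kdr and Tek passed at the adjusted p in no comparison. The part of these differences between lines in the results on Krüppel-like factors was not tested.

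Klf8 and Klf13 were the members whose level was lower in every FAK-kd library than in any other library, and the bases just upstream of their annotated RNA starts are shown for that reason. RefSeq (build GRCm38.p6) gives Klf8 a pair of starts. The first window, chrX:153237512-153237747 on the plus strand, is cut to bases outside annotated exons. It directly follows an exon of the annotated transcript Klf8-203. The second is chrX:153359363-153359612 on the plus strand, and the Klf13 window is chr7:63938916-63939165 on the minus strand. Both Klf8 windows lie inside the annotated span of Klf8, which begins at chrX:153237466. They are upstream of the RefSeq starts but not of the whole gene. Capitals mark CACCC, the core of the box bound by this family, or GGGTG, the same letters read on the other strand.
Klf8 first start: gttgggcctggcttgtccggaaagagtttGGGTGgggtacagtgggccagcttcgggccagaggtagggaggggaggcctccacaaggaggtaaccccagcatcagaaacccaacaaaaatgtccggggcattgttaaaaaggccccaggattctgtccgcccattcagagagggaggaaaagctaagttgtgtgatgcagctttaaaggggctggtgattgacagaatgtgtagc
Klf8 second start: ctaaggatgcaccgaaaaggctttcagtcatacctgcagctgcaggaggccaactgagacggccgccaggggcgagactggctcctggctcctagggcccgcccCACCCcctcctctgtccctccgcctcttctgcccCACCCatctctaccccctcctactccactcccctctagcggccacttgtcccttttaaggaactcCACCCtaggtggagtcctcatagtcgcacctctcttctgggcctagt
Klf13: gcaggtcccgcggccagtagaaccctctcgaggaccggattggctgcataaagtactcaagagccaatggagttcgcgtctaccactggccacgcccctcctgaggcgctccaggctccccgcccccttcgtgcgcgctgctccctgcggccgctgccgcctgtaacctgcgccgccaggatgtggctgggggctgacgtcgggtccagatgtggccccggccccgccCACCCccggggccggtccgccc

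CACCC was found on either strand 1 time before the first Klf8 start, 3 times before the second and 1 time before Klf13. Among 32851 RefSeq windows of 250 bases, 52.0% held at least 1 match and 6.9% at least 3. A start of RNA with this annotation was matched for 8 of the 10 members. The window of Klf3 held 5 matches (0.7% of windows held as many), that of Klf7 held 3, those of Klf9 and Klf12 held 1, and those of Klf4 and Klf6 held 0. The Klf3 window is 78.4% G or C, beside a median of 52.4% over all windows. The windows of Klf3, Klf6 and Klf7 overlap annotated exons and were counted uncut. The letters are a description of these windows and mark no measured binding.

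Klf8 RNA was present in FAK-WT and FAK-/- cells and close to its counting limit in FAK-kd cells. Klf8 (ENSMUSG00000041649, chrX:153237466-153396132, plus strand) is the CtBP-binding repressor of the family that has been linked to FAK. The FAK-WT libraries held 8, 203 and 197 Klf8 counts, or 10.1, 5.40 and 5.68 CPM. The FAK-/- libraries held 194, 147 and 147 counts, or 5.81, 5.80 and 4.71 CPM, and the FAK-kd libraries 11, 6 and 4 counts, or 0.330, 0.180 and 0.117 CPM. All FAK-kd libraries lay below all others, whereas FAK-WT and FAK-/- libraries overlapped. Whether fewer FAK-kd cells held Klf8 RNA or each held less cannot be told apart in bulk RNA. The high value of FAK-WT replicate 1 rested on 8 counts, and its 95% exact Poisson interval, which covers counting error only, ran from 4.35 to 19.8 CPM and took in the other two FAK-WT values.

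**Figure D1:**
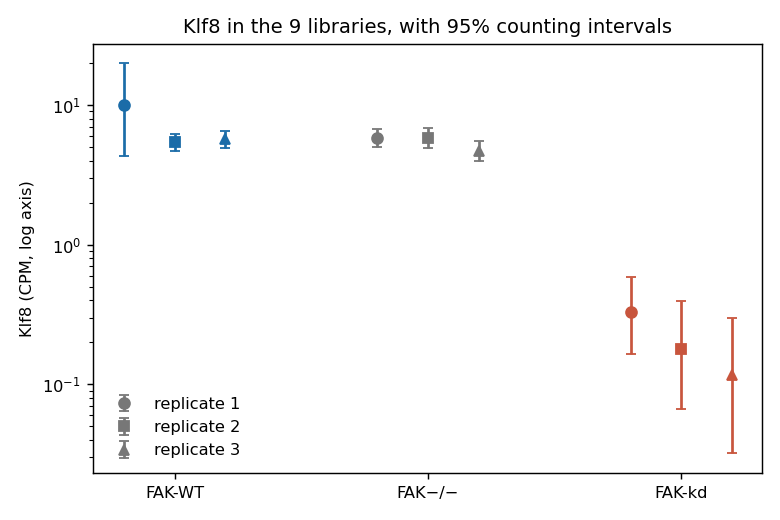
Klf8 level in CPM (log axis) in each of the 9 libraries, with the 95% exact Poisson interval of its count as bars. The FAK-kd libraries lie between 0.117 and 0.330 CPM, below every FAK-WT and FAK-/- library, and the widest interval of those at high level is that of FAK-WT replicate 1.

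Mean Klf8 levels were 7.05 ± 2.62 CPM in FAK-WT, 5.44 ± 0.634 CPM in FAK-/- and 0.209 ± 0.109 CPM in FAK-kd cells (SD, n = 3). The FAK-WT mean was 33.8-fold and the FAK-/- mean 26.0-fold that of FAK-kd cells, and with FAK-WT replicate 1 left out the former ratio was 26.5. The fitted log2 fold change of Klf8 was 4.81 (SE 0.33) for FAK-WT over FAK-kd, -4.68 (SE 0.32) for FAK-kd over FAK-/- and 0.14 (SE 0.25) for FAK-WT over FAK-/-. Among the 12235 genes that passed edgeR's filter on low counts, the first of these ranked 41 from the highest and the second 22 from the lowest. The FAK-WT and FAK-/- lines thus did not differ beyond their spread, and the FAK-kd line stood apart from both. The comparisons share libraries and are not independent of each other.

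A change was past the threshold where edgeR's quasi-likelihood test gave an adjusted p of at most 0.05 and the fitted log2 value was 1 or more in either direction. By this threshold 0 of the 10 members passed in FAK-WT over FAK-/- cells, where 5.38% of all genes did. In FAK-WT over FAK-kd cells 1 of 10 passed, Klf8, against 5.26% of all genes. In FAK-kd over FAK-/- cells 1 of 10 passed, again Klf8, against 2.01% of all genes. With the adjusted p alone, 3 members passed in FAK-WT over FAK-/- (Klf6, Klf7 and Klf9, all lower), against 18.0% of all genes. In FAK-WT over FAK-kd 5 passed (Klf8 and Klf13 higher, Klf6, Klf7 and Klf10 lower), against 17.7%. In FAK-kd over FAK-/- 3 passed (Klf10 higher, Klf8 and Klf13 lower), against 7.84%. These shares are over all 19044 genes, many of them with few counts. Over the 12235 genes kept by the filter, which include 9 of the members and leave out Klf12, the shares on the adjusted p alone were 26.7%, 26.2% and 11.9%.

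**Figure D2:**
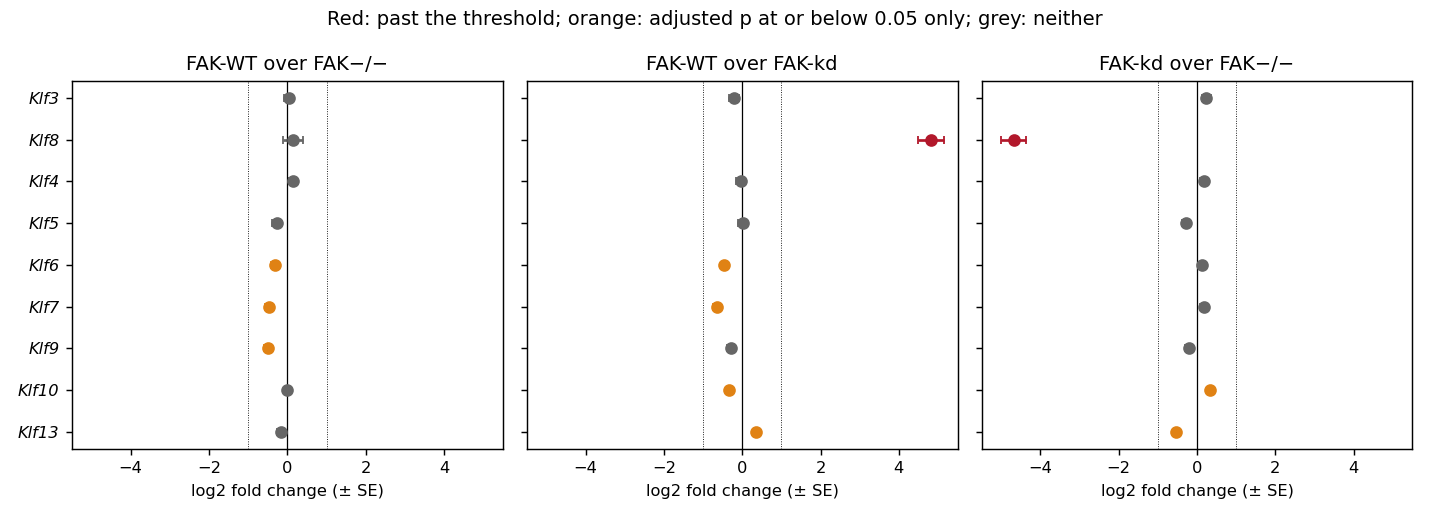
Fitted log2 fold changes with standard errors (horizontal axis) of 9 members (vertical axis) in the 3 comparisons, without Klf12, whose counts give no fold. Dotted lines mark a log2 fold change of 1 in either direction, and Klf8 at 4.81 and -4.68 is the member outside them, in the comparisons with FAK-kd.

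The other CtBP-binding members were either well expressed and close to level or nearly absent. Klf3 (ENSMUSG00000029178, chr5:64803388-64832901, plus strand), a repressor known in blood and fat cells, was at 80.6, 58.7 and 58.0 CPM in FAK-WT, 66.5, 61.1 and 52.8 CPM in FAK-/- and 61.7, 76.9 and 74.3 CPM in FAK-kd libraries. The groups overlapped in every comparison, and the log2 fold changes were 0.03 (SE 0.12) for FAK-WT over FAK-/-, -0.21 (SE 0.12) for FAK-WT over FAK-kd and 0.24 (SE 0.11) for FAK-kd over FAK-/-. A gene on the opposite strand, Gm20033, overlaps Klf3 exons and is not among the identifiers measured. Of the 31-base words of Klf3 transcripts 4.53% occur in other genes. Klf12 (ENSMUSG00000072294, chr14:99870632-100284679, minus strand), a repressor of the AP-2alpha gene Tfap2a, had 0, 1 and 1 counts in FAK-WT libraries and 0 in the other 6. All groups were under the floor of 3 counts per library, so no fold is given, and Klf12 was not detectable at this depth above that floor.

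The activator-type members were detected in every library, and Klf6 and Klf7 were lower in FAK-WT cells than in both other groups. Klf6 (ENSMUSG00000000078, chr13:5861482-5870394, plus strand), a growth-restraining factor that responds to injury, was at 106, 119 and 124 CPM in FAK-WT, 161, 154 and 131 CPM in FAK-/- and 151, 169 and 170 CPM in FAK-kd libraries. Every FAK-WT library was below every other, while FAK-/- and FAK-kd overlapped. The log2 fold change of Klf6 was -0.32 (SE 0.09) for FAK-WT over FAK-/-, -0.46 (SE 0.09) for FAK-WT over FAK-kd and 0.13 (SE 0.08) for FAK-kd over FAK-/-. Klf7 (ENSMUSG00000025959, chr1:64029447-64122282, minus strand), known from the outgrowth of neurons, was at 18.9, 26.9 and 27.8 CPM in FAK-WT, 35.1, 38.3 and 35.8 CPM in FAK-/- and 43.1, 39.8 and 41.1 CPM in FAK-kd libraries. The 3 groups did not overlap and stood in the order FAK-WT, FAK-/-, FAK-kd, with log2 fold changes of -0.46 (SE 0.10) for FAK-WT over FAK-/-, -0.64 (SE 0.10) for FAK-WT over FAK-kd and 0.18 (SE 0.10) for FAK-kd over FAK-/-. Of the 31-base words of Klf7 transcripts 38.72% also occur in transcripts of other genes, among them genes on the opposite strand, and the library kit does not mark strand, so the level of Klf7 is uncertain. The opposite-strand genes that overlap Klf7 exons, Gm26649 and Gm13748, are not among the identifiers measured, so their levels cannot be given.

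Klf4 and Klf5, the pair best known from skin, passed at the adjusted p in none of the 3 comparisons. Klf4 (ENSMUSG00000003032, chr4:55527143-55532466, minus strand), needed for the skin barrier, was at 76.8, 82.0 and 82.0 CPM in FAK-WT, 67.8, 67.2 and 85.8 CPM in FAK-/- and 72.8, 90.3 and 87.5 CPM in FAK-kd libraries. FAK-/- replicate 3 was the highest of its group, and the groups overlapped in all comparisons, with log2 fold changes of 0.14 (SE 0.11), -0.04 (SE 0.11) and 0.18 (SE 0.10) for FAK-WT over FAK-/-, FAK-WT over FAK-kd and FAK-kd over FAK-/-. Klf5 (ENSMUSG00000005148, chr14:99298691-99315036, plus strand) was at 13.8, 25.5 and 22.5 CPM in FAK-WT, 25.9, 27.4 and 30.2 CPM in FAK-/- and 22.3, 23.6 and 22.8 CPM in FAK-kd libraries. Its FAK-/- libraries were above all others, with log2 fold changes of -0.27 (SE 0.12) for FAK-WT over FAK-/-, 0.01 (SE 0.12) for FAK-WT over FAK-kd and -0.28 (SE 0.11) for FAK-kd over FAK-/-, and Klf5 FAK-WT and FAK-kd libraries overlapped. The lowest value, 13.8 CPM, was that of the shallow FAK-WT replicate 1.

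**Figure D3:**
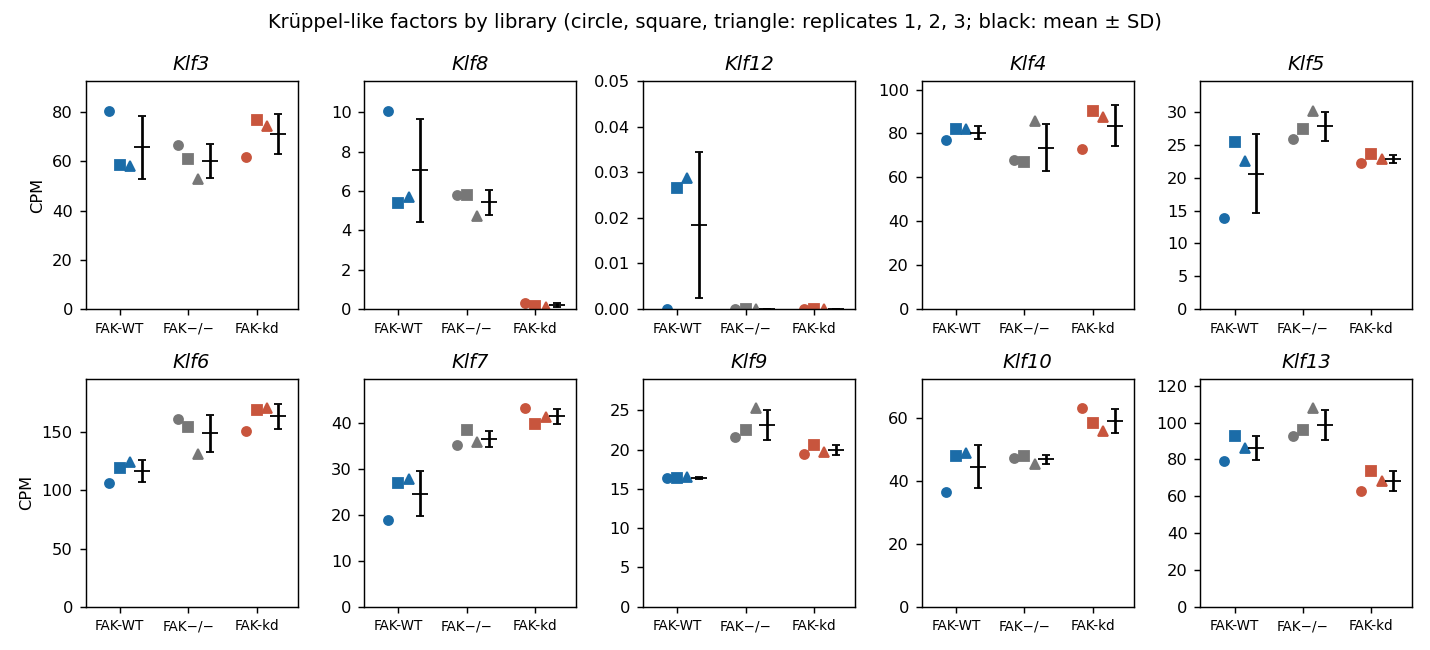
Level in CPM (vertical axis, each panel from 0 on its own scale) of each member in the 9 libraries by group, with the group mean and SD (n = 3) in black. Klf8 is near 0 in FAK-kd cells, Klf13 is lowest there, Klf6, Klf7 and Klf9 are lowest in FAK-WT cells, and the Klf12 panel spans 0 to 1 counts per library.

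The Sin3-binding members showed 3 different orders of the groups. Klf9 (ENSMUSG00000033863, chr19:23141226-23168134, plus strand), a target of glucocorticoid and thyroid hormone receptors, was at 16.4, 16.3 and 16.6 CPM in FAK-WT, 21.6, 22.4 and 25.2 CPM in FAK-/- and 19.4, 20.6 and 19.7 CPM in FAK-kd libraries. The groups did not overlap, and the log2 fold change was -0.49 (SE 0.10) for FAK-WT over FAK-/-, -0.28 (SE 0.10) for FAK-WT over FAK-kd and -0.21 (SE 0.09) for FAK-kd over FAK-/-, of which only the first passed at the adjusted p. Klf10 (ENSMUSG00000037465, chr15:38291463-38300706, minus strand), first known as a gene induced early by TGF-beta, was at 36.5, 48.0 and 48.6 CPM in FAK-WT, 47.3, 47.9 and 45.2 CPM in FAK-/- and 62.9, 58.1 and 55.6 CPM in FAK-kd libraries. Its FAK-kd libraries were above all others, with a log2 fold change of -0.33 (SE 0.09) for FAK-WT over FAK-kd and 0.33 (SE 0.09) for FAK-kd over FAK-/-, and -0.00 (SE 0.09) for FAK-WT over FAK-/-.

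Klf13 (ENSMUSG00000052040, chr7:63886351-63938915, minus strand), an activator of the chemokine gene Ccl5 in T cells, was at 79.3, 92.5 and 86.3 CPM in FAK-WT, 92.6, 95.7 and 108 CPM in FAK-/- and 62.7, 73.9 and 68.4 CPM in FAK-kd libraries. Its FAK-kd libraries were below all others, as for Klf8, but the difference was small: the log2 fold change was 0.36 (SE 0.09) for FAK-WT over FAK-kd, -0.53 (SE 0.08) for FAK-kd over FAK-/- and -0.17 (SE 0.09) for FAK-WT over FAK-/-. Libraries of the groups compared did not overlap for 5 members in FAK-WT over FAK-/-, 6 in FAK-WT over FAK-kd and 6 in FAK-kd over FAK-/-. This was so for 29.6%, 32.8% and 25.3% of all genes and, among the 12235 genes kept, for 42.5%, 47.7% and 35.3%.

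Compared per kb of the longest coding transcript (GENCODE, build GRCm38), Klf6 had the highest mean of the 10 members in every group, followed by Klf4, and Klf8 and Klf12 had the lowest. The 5 other Krüppel-like factors in the table are not in this order. Among them Klf16 was at 20.8 ± 1.84, 26.3 ± 5.04 and 22.6 ± 0.496 CPM per kb in FAK-WT, FAK-/- and FAK-kd cells (SD, n = 3). Klf16 was within the spread of Klf4 in FAK-/- cells and below Klf4 in FAK-WT and FAK-kd cells (Klf4 in FAK-kd 27.6 ± 3.12). In FAK-WT cells the mean levels were 27.6 ± 2.28 CPM per kb for Klf6, 26.5 ± 0.988 for Klf4, 14.6 ± 2.24 for Klf10, 13.5 ± 1.03 for Klf13, 12.6 ± 2.46 for Klf3, 6.15 ± 1.81 for Klf5, 3.66 ± 0.026 for Klf9, 3.20 ± 0.640 for Klf7, 1.48 ± 0.551 for Klf8 and 0.003 ± 0.003 for Klf12 (SD, n = 3). Klf6 and Klf4 there were within their spread of each other, as were Klf10, Klf13 and Klf3, and Klf9 and Klf7. In FAK-/- cells Klf6 (35.2 ± 3.71 CPM per kb) was above Klf4 (24.3 ± 3.50), and Klf13 and Klf10 (15.4 ± 1.24 and 15.4 ± 0.460) could not be placed in order. In FAK-kd cells Klf6 was at 38.7 ± 2.57 CPM per kb, Klf10 (19.3 ± 1.21) stood above Klf3 (13.6 ± 1.56) and Klf13 (10.7 ± 0.872), and Klf8 was at 0.044 ± 0.023.

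The 10 members together summed to 438 to 475 CPM in FAK-WT, 519 to 524 CPM in FAK-/- and 496 to 552 CPM in FAK-kd libraries. Klf8 made up 1.14% to 2.30% of that sum in FAK-WT, 0.908% to 1.11% in FAK-/- and 0.0217% to 0.0665% in FAK-kd libraries.

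No further Krüppel-like or Sp factor passed the threshold. Of 7 other Krüppel-like factors 5 were in the table, and 0 passed in any comparison by edgeR's quasi-likelihood test. At the adjusted p alone, Klf2, a factor of quiescent endothelium and T cells, was lower in FAK-WT cells than in the FAK-/- line (log2 fold change -0.73, SE 0.24, edgeR adjusted p = 0.046), and without FAK-/- replicate 3 the change was -0.32 (adjusted p = 0.128). The call on Klf2 was also lost under DESeq2 (adjusted p = 0.057), with edgeR's filter on low counts (0.061) and with only the groups compared (0.117). It was lost as well without any FAK-WT or FAK-kd replicate in turn (adjusted p from 0.059 to 0.142). Klf11, a Sin3-binding relative of Klf10, was lower in the FAK-WT line than in FAK-/- (-0.72, SE 0.20, adjusted p = 0.018) and than in FAK-kd cells (-0.72, SE 0.20, adjusted p = 0.017). Neither call on Klf11 was kept under DESeq2 (adjusted p = 0.060 and 0.062) or without FAK-WT replicate 3 (adjusted p = 0.146 in both). The call against FAK-/- was also lost without FAK-/- replicate 1 (0.061) and with only the groups compared (0.068). That against FAK-kd was also lost without FAK-kd replicate 2 (0.078) or 3 (0.067). Of 9 Sp factors 8 were in the table and 0 passed the threshold. Sp1, the widely expressed GC-box activator, passed at the adjusted p alone, higher in FAK-kd than in FAK-WT cells (for FAK-WT over FAK-kd -0.36, SE 0.09, edgeR adjusted p = 0.012) and than in FAK-/- cells (0.37, SE 0.09, adjusted p = 0.016). The first call on Sp1 was lost without FAK-WT replicate 2 (adjusted p = 0.081) or 3 (0.112) or FAK-kd replicate 3 (0.085), and the second without FAK-kd replicate 2 (0.068) or 3 (0.123). The median log2 fold changes of the 3 other Krüppel-like factors kept were -0.72, -0.66 and -0.07 in FAK-WT over FAK-/-, FAK-WT over FAK-kd and FAK-kd over FAK-/-, and those of the 5 Sp factors kept -0.02, -0.09 and -0.01, beside -0.02, -0.02 and 0.01 over all genes kept.

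The list of 13 cofactor genes also holds Wwp1 and Fbxw7, which belong to ubiquitin ligases and are not recruited cofactors. All of the list were expressed, and 0 of 13 passed the threshold in any comparison, with medians of -0.06, -0.12 and 0.06. At the adjusted p alone, 4 passed in FAK-WT over FAK-/-, 3 in FAK-WT over FAK-kd and 1 in FAK-kd over FAK-/- cells. All 13 were kept by the filter, and of all kept genes 26.7%, 26.2% and 11.9% passed in these comparisons. Among them, the corepressor gene Sin3b was lower in the FAK-WT line than in FAK-/- (-0.49, SE 0.07, edgeR adjusted p = 1.0e-04) and than in FAK-kd cells (-0.29, SE 0.07, adjusted p = 0.0074). Parp1 was higher in FAK-WT than in FAK-kd cells (0.33, SE 0.06, edgeR adjusted p = 0.0016). The coactivator gene Ncoa3 was higher in the FAK-WT line than in FAK-/- (0.42, SE 0.09, adjusted p = 0.0044). It was also higher than in FAK-kd cells (0.29, SE 0.09, adjusted p = 0.043). That call was lost without FAK-WT replicate 2 or 3 or any FAK-kd replicate (adjusted p from 0.070 to 0.239) and with a replicate block (0.087). Hdac1, a histone deacetylase gene, was lower (-0.33, SE 0.08, adjusted p = 0.0073) and Wwp1, which encodes a ubiquitin ligase of KLF5, higher (0.40, SE 0.10, adjusted p = 0.013) in the FAK-WT line than in FAK-/-. Ctbp2, a corepressor gene for the group of Klf3, Klf8 and Klf12, was lower in FAK-kd than in FAK-/- cells (-0.28, SE 0.06, adjusted p = 0.011). Leaving out 1 library took the adjusted p of Ncoa3 against FAK-/- to 0.057 (without FAK-WT replicate 2) and 0.051 (without FAK-WT replicate 3), that of Wwp1 to 0.068 (without FAK-WT replicate 2) and that of Ctbp2 to 0.082 (without FAK-kd replicate 2). The lower Sin3b against FAK-kd was lost without FAK-WT replicate 2 (0.051) or 3 (0.053) or FAK-kd replicate 2 (0.055).

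Of 5 genes known as KLF8 targets, Mmp9 alone passed the threshold, in FAK-kd over FAK-/- cells. The 4 targets kept by the filter had median log2 fold changes of -0.64, -0.12 and -0.31 in FAK-WT over FAK-/-, FAK-WT over FAK-kd and FAK-kd over FAK-/-. Ccnd1, which encodes cyclin D1 and is described as activated by KLF8, was at 2789, 2780 and 2988 CPM in FAK-/- and 2324, 2132 and 2115 CPM in FAK-kd libraries, a log2 fold change of -0.38 (SE 0.06, edgeR adjusted p = 8.9e-04) that is below the fold minimum. Ccnd1 was between them in FAK-WT cells (2465, 2453 and 2368 CPM), at -0.23 (SE 0.06, adjusted p = 0.014) against FAK-/- and 0.15 log2 units above FAK-kd (adjusted p = 0.115), and the former was lost without FAK-WT replicate 2 (0.061) or 3 (0.090). The gelatinase gene Mmp9 was at 0.509, 0.670 and 0.416 CPM in FAK-/- and 0.210, 0.030 and 0.0586 CPM in FAK-kd libraries, a log2 fold change of -2.37 (SE 0.62, edgeR adjusted p = 0.029). In the FAK-WT libraries Mmp9 was at 0, 0.213 and 0.0865 CPM, on 0 to 8 counts (-1.81, SE 0.66, adjusted p = 0.075 over FAK-/-, and 0.56, SE 0.74, adjusted p = 0.666 over FAK-kd). A link between Klf8 and Mmp9 levels was not tested. The call in FAK-kd over FAK-/- rests on 13 to 17 counts against 1 to 7. It was lost under DESeq2 (adjusted p = 0.155) and with only the groups compared (0.0505). It was also lost without FAK-/- replicate 1 (0.052) or 2 (0.079) and without FAK-kd replicate 2 (0.126) or 3 (0.149).

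Fhl2, which encodes a LIM-domain coactivator, and Mmp14, which encodes a membrane-bound protease, both described as activated by KLF8, were lowest in FAK-WT cells. Fhl2 was at 52.9, 47.1 and 50.3 CPM in FAK-WT, 76.6, 75.4 and 79.9 CPM in FAK-/- and 96.5, 86.8 and 85.4 CPM in FAK-kd libraries. Its log2 fold changes were -0.65 (SE 0.08, edgeR adjusted p = 2.7e-05) for FAK-WT over FAK-/- and -0.87 (SE 0.08, adjusted p = 1.7e-06) for FAK-WT over FAK-kd, and Mmp14's were -0.63 (SE 0.10, adjusted p = 2.3e-04) and -0.38 (SE 0.10, adjusted p = 0.010), the latter lost without FAK-WT replicate 2 (0.0504) or 3 (0.053) or FAK-kd replicate 1 (0.055). Cdh1, the E-cadherin gene that KLF8 is known to repress, was at 0 in 8 of the 9 libraries, with 4 counts in FAK-/- replicate 3. A gene at 0 cannot show a further fall. A rise could have been seen, and Cdh1 was at 0 in every FAK-kd library, where Klf8 was lowest. A link between Klf8 and Cdh1 levels was not tested.

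Of 8 genes known as targets of other members, Ccl5 and Fgfbp1 rose in FAK-WT cells against both other groups, and 0 passed the threshold in FAK-kd over FAK-/- cells. The medians of the 8 were -0.16, -0.22 and 0.13 in FAK-WT over FAK-/-, FAK-WT over FAK-kd and FAK-kd over FAK-/-. Ccl5, the chemokine gene that KLF13 activates in T cells, was at 1.26, 3.51 and 3.40 CPM in FAK-WT, 0.809, 0.513 and 0.480 CPM in FAK-/- and 0.420, 0.749 and 0.644 CPM in FAK-kd libraries. The log2 fold changes were 2.42 (SE 0.35, edgeR adjusted p = 1.3e-04) over FAK-/- and 2.42 (SE 0.34, adjusted p = 1.2e-04) over FAK-kd, and the value of FAK-WT replicate 1 rested on 1 count; without that library the changes were 2.51 and 2.51. Fgfbp1, which encodes a carrier of fibroblast growth factors and is described as a KLF5 target, was at 5.04, 3.81 and 3.81 CPM in FAK-WT, 0.929, 0.749 and 1.28 CPM in FAK-/- and 1.02, 1.08 and 1.14 CPM in FAK-kd libraries. Its log2 fold changes were 1.98 (SE 0.28, edgeR adjusted p = 1.1e-04) and 1.86 (SE 0.28, adjusted p = 1.7e-04). Cdkn1a, the p21 gene activated by KLF4 and KLF6, was at 176, 180 and 174 CPM in FAK-WT, 119, 120 and 137 CPM in FAK-/- and 138, 138 and 139 CPM in FAK-kd libraries, with log2 fold changes of 0.50 (SE 0.07, adjusted p = 1.3e-04) and 0.35 (SE 0.07, adjusted p = 0.0023), below the fold minimum. Tfap2a, known as repressed by KLF12, was lower in FAK-WT than in FAK-kd cells by the adjusted p alone (-0.81, SE 0.21, edgeR adjusted p = 0.012), a call lost without FAK-WT replicate 2 (0.133) or 3 (0.0502) or FAK-kd replicate 3 (0.086). Pdgfa, the growth factor gene that KLF5 is described to activate, was at 27.7, 43.7 and 42.4 CPM in FAK-WT, 57.0, 61.9 and 83.6 CPM in FAK-/- and 50.9, 50.5 and 51.9 CPM in FAK-kd libraries, lower in FAK-WT than FAK-/- cells by the adjusted p alone (-0.71, SE 0.14, adjusted p = 0.0018). Lgals3 (-0.26, SE 0.07, edgeR adjusted p = 0.013) and Txnrd2 (-0.66, SE 0.17, adjusted p = 0.014) were lower in FAK-WT than in FAK-kd cells, and Lgals3 was higher in FAK-kd over FAK-/- (0.24, SE 0.07, adjusted p = 0.038), each by the adjusted p alone. Each of these Lgals3 and Txnrd2 calls was lost on leaving out 1 library: that of Lgals3 between FAK-WT and FAK-kd without FAK-WT replicate 1 (0.0555) or 2 (0.0503) or FAK-kd replicate 2 (0.086) or 3 (0.087), that of Lgals3 in FAK-kd over FAK-/- without FAK-WT replicate 2 or 3, FAK-/- replicate 1 or 2, or FAK-kd replicate 2 or 3 (adjusted p from 0.081 to 0.209), and that of Txnrd2 without FAK-WT replicate 2 (0.082) or FAK-kd replicate 1 (0.077) or 3 (0.053). The targets are taken from what is known of other cells, and nothing here measures binding.

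The 5 genes whose log2 CPM followed Klf8 most closely over the 9 libraries were Cadm4, Selenom, Ank2, Arsj and Sema6d, with Pearson r of 0.981, 0.979, 0.979, 0.977 and 0.976 among 12234 genes ranked. The points are libraries of 3 cell lines, so that the ranking picks genes lower in FAK-kd cells, and the values are a description. Cadm4, a cell adhesion gene, averaged 6.79 ± 0.702 CPM in FAK-WT, 5.54 ± 0.291 CPM in FAK-/- and 2.53 ± 0.565 CPM in FAK-kd cells (SD, n = 3). Ank2, an ankyrin gene, averaged 3.39 ± 0.499, 3.02 ± 0.598 and 0.803 ± 0.106 CPM in the same order, and the semaphorin gene Sema6d 52.1 ± 2.87, 56.0 ± 2.70 and 33.4 ± 1.30 CPM. Each was lower in FAK-kd cells by a smaller ratio than Klf8. Over 8 libraries without FAK-WT replicate 1, Arsj, an arylsulfatase gene, ranked 1 (r = 0.990) and the other four ranked 9 to 17. Among the members Klf13 was the most like Klf8 (r = 0.773, rank 439), and Klf10 the least (r = -0.840).

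Some genes within 2 Mb of Klf8 on chromosome X passed the threshold. This window was chosen after the Klf8 values were seen, and no test is attached to it. Of the 18 genes within 2 Mb that were kept by the filter, 1 was past the threshold in FAK-kd over FAK-/- cells, Shroom2, which encodes an actin-binding protein, at -2.69 (SE 0.45), with a median of -0.10 over the 18. In FAK-WT over FAK-kd cells 2 of the 18 were past it, both higher, Shroom2 at 6.58 (SE 0.39) and Gpr173, a receptor gene, at 1.09 (SE 0.26). That is 11.1% of the 18, beside 7.33% higher of the 409 kept genes of chromosome X and 2.61% of all kept genes. Gpr173 averaged 3.04, 2.46 and 1.29 CPM in FAK-WT, FAK-/- and FAK-kd cells and was lowest in FAK-kd cells, as was Klf8. Its log2 fold change was 0.16 (SE 0.25) in FAK-WT over FAK-/- and -0.93 (SE 0.24) in FAK-kd over FAK-/-. Tspyl2 averaged 35.8, 28.5 and 21.1 CPM in the same order of groups. Shroom2 differed from Klf8 in FAK-/- cells, where Shroom2 averaged 0.411 CPM and Klf8 5.44 CPM. In FAK-WT cells Shroom2 averaged 6.44 CPM and Klf8 7.05 CPM, and in FAK-kd cells Shroom2 averaged 0.0593 CPM. Among genes of the window that the filter left out, Magea8 averaged 0.668, 0.183 and 0 CPM in FAK-WT, FAK-/- and FAK-kd cells. Magea8 was past the threshold in every comparison, with -5.48 (SE 1.06) in FAK-kd over FAK-/-. Magea2 and Magea5 passed only in FAK-WT over FAK-kd and Gm10057 only in FAK-kd over FAK-/-, all higher. Each averaged at most 0.119 CPM in any group. Ubqln2, whose start lies 260761 bases past that of Klf8, had a log2 fold change of -0.16 (SE 0.07) in FAK-kd over FAK-/- cells. Over 409 kept genes of chromosome X, 7 were higher (1.71%) and 19 lower (4.65%) past the threshold in that comparison, with a median of 0.04, against 1.35% higher and 1.48% lower of all 12235 kept genes.

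**Figure D4:**
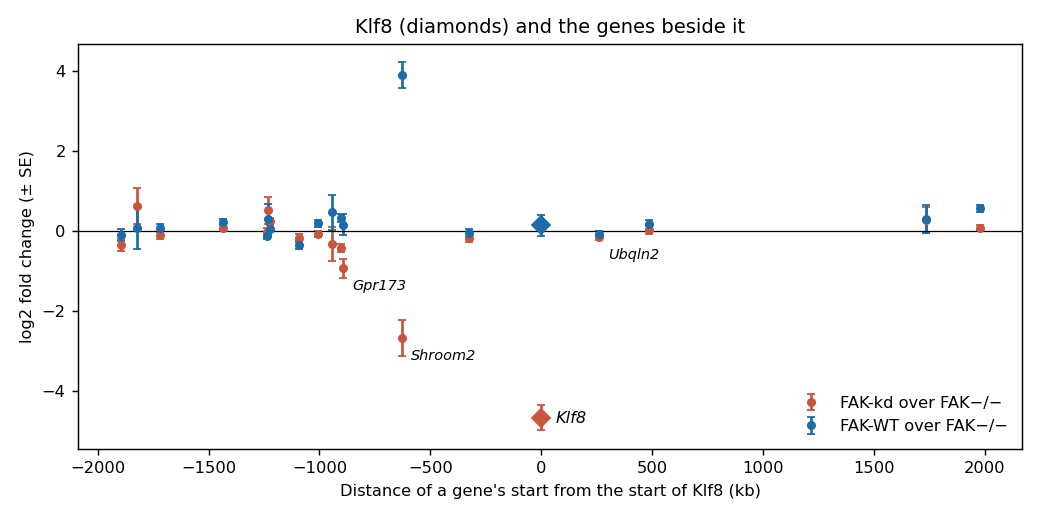
Fitted log2 fold changes with standard errors (vertical axis) of Klf8 and the 18 kept genes whose starts lie within 2 Mb, by the distance of their start from that of Klf8 in kb (horizontal axis). In FAK-kd over FAK-/- cells Klf8 (-4.68) and Shroom2 (-2.69) stand below the rest, and in FAK-WT over FAK-/- cells Shroom2 (3.90) stands above it.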

How the data were processed

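Gene levels were taken from 1 table of 9 libraries, grouped and numbered by their labels. The authors extracted RNA with an RNeasy kit, made unstranded TruSeq RNA v2 libraries, pseudoaligned paired-end Illumina reads with kallisto (0.43.1) and summarized transcripts to genes with tximport. The release of the transcriptome is not given in the sources used here. The deposited values are estimated counts, held as whole numbers for 19044 Ensembl identifiers; 18856 matched a gene symbol. Estimated counts divide reads shared between transcripts by a model, so that genes with shared sequence are less certain.

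Counts were fitted in edgeR (4.0.16, R 4.3.3) with TMM scaling, no filter on low counts, all 9 libraries and group as the only term, and the quasi-likelihood test was adjusted by Benjamini-Hochberg over all genes. The threshold was an adjusted p of at most 0.05 together with a log2 change of 1 or more in either direction. Tests with DESeq2 (1.42.0), other scalings, filterByExpr (12235 genes kept), 2 groups alone, a replicate block, glmTreat and each library left out were run, and the scripts were tested on simulated data. Each group is 1 cell line, so that p-values measure the spread between replicates within lines. No pair of libraries agreed within sampling noise. The members and gene lists were chosen with earlier results of these data known. The genes named were all members, genes of the lists (other Krüppel-like and Sp factors, cofactors, targets and cell type markers) past the threshold, Ptk2, and the 5 most like Klf8 by Pearson r of log2 CPM (prior count 2). Listed genes that passed on the adjusted p alone, and the neighbours of Klf8, were named after their values were seen. Immune markers (2 of 5 in the table) summed to at most 0.659 CPM and endothelial markers (4 of 4) to at most 2.05 CPM. ATAC-seq and protein data were not analysed here.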

Additional observations from a re-analysis of the deposited data

How the results depend on the processing

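In every setting run, 0, 1 and 1 members passed the threshold in FAK-WT over FAK-/-, FAK-WT over FAK-kd and FAK-kd over FAK-/- cells. The log2 fold change of Klf8 over the libraries left out in turn ran from 0.01 to 0.28, from 4.54 to 5.30 and from -5.16 to -4.40, and the extremes 5.30 and -5.16 came without FAK-kd replicate 1. Without the shallow FAK-WT replicate 1 all members kept their calls at the adjusted p. Klf7 and Klf9 in FAK-WT over FAK-/-, Klf6, Klf7 and Klf8 in FAK-WT over FAK-kd, and Klf8 and Klf13 in FAK-kd over FAK-/- kept that call in every setting other than glmTreat, which tests against a fold minimum. Klf6 lost it in FAK-WT over FAK-/- with only the groups compared and without FAK-WT replicate 2 or FAK-/- replicate 1 or 2. Klf13 lost it in FAK-WT over FAK-kd without FAK-WT replicate 2, and Klf10 lost it in both its comparisons without FAK-WT replicate 2 or 3 or any FAK-kd replicate, and in FAK-kd over FAK-/- also without FAK-/- replicate 1 or 2. Without FAK-/- replicate 3, Klf4 passed in FAK-WT over FAK-/- and FAK-kd over FAK-/-, and Klf3 and Klf9 in FAK-WT over FAK-kd, where Klf9 also passed with filterByExpr and with only the groups compared. The glmTreat test against a log2 fold change of 1 called 433, 450 and 117 genes in all in place of 1024, 1001 and 382. Of the listed genes that are neither members nor cell type markers, 1 passed in FAK-kd over FAK-/- (Mmp9), and 0 did under DESeq2, with only the groups compared and under glmTreat, with 0 to 2 over the libraries left out; the cause was not tested. Scaling did not move the median of the genes kept by 0.1.

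Replicate numbers did not pair the libraries: deviations from the group means correlated at -0.0464 to 0.0453 for the 9 pairs with the same number and -0.0601 to 0.0637 for the 18 others. With the replicate number as a block, 941, 890 and 359 genes passed the threshold, the Klf8 log2 fold changes were 0.24, 4.95 and -4.71, and the members past the threshold were 0, 1 and 1. The depth of FAK-WT replicate 1 limits what can be said of low genes there.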
